A study of Mus musculus with 15 samples.

Results

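Mouse MC3T3 osteoblast precursors kept for 1 day with beta-glycerol phosphate (GP) were compared with the same cells in control medium at day 0. The comparison took every array labelled as GP alone at day 1 and every array labelled as medium at day 0, 3 of each, so that 6 of the 15 arrays of the series carry it. Each array has a preparation number, and prep 1, 2 or 3 of the GP cultures was set against the day 0 prep of the same number. The other 9 arrays, 3 per group, are cells with GP alone at day 3, and cells given GP, ascorbic acid (AA) and the bone morphogenetic protein BMP-2, taken at day 1 and at day 3. All cells were MC3T3 clone 1b, a line from mouse calvaria, the flat bones of the skull. It is a single clone, so the values stand for that clone. The labels do not say whether the preps were separate cultures. Each p-value is set against how far the group differences varied from prep to prep over all 15 arrays, and this variation may be technical only. The GP cultures also had a further day of culture, so GP and time cannot be told apart.

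GP is split by alkaline phosphatase to release phosphate, and it is given to osteoblast cultures as a phosphate source for mineral. Mineral forms late, in a collagen matrix that the cells must lay down first, and matrix assembly needs ascorbic acid. Osteoblast precursors divide until they are crowded, and the cells that divide carry a large, shared set of transcripts for the second gap phase (G2) and mitosis. These include the kinase Cdk1 with its B-type cyclins, the Aurora kinases, the spindle checkpoint, the mitotic kinesins and the condensins, and many of them are switched on together late in the cycle.

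Each array gave 1 intensity per probe set for 12488 probe sets, in arbitrary units that had been scaled before deposit to the same trimmed mean on every array. Of the 12422 probe sets other than controls, 7453 were bright enough to be tested, and those with 1 gene symbol stood for 5643 genes. The first principal component, with 32.7% of the variance over the 15 arrays, set the prep 3 arrays of all groups apart, and the prep number was therefore kept as a block in the fit. The GP day 1 arrays had 8.32% to 11.7% of values at the floor and actin 3′ to 5′ ratios of 1.02 to 1.23, against 7.54% to 12.1% and 1.00 to 1.21 at day 0. Of 20 osteoblast genes listed, 14 were bright enough to be tested. Type I collagen (Col1a1) and osteonectin (Sparc) were bright on all 6 arrays. Alkaline phosphatase (Alpl) and bone sialoprotein (Ibsp), also osteoblast markers, were near the dim limit. The cell type is taken from the labels, and these markers do not settle it. Errors of fold changes are standard errors from limma, group intensities are means ± SD with n = 3 arrays, and p-values are adjusted over all tested probe sets by the Benjamini-Hochberg method.

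The cells at GP day 1 differed from day 0 mainly in genes of cell division. Of the tested probe sets, 54 passed an adjusted p of 0.05 (0.725%), 53 of them higher at GP day 1 (0.711%) and 1 lower (0.0134%). With the brightest probe set kept for each gene, 47 genes rose (0.833% of the genes tested) and 1 fell (0.0177%). Called probe sets of Plk1 and Cdca5 were not the brightest of their genes, so those genes are not among the 47. The 47 genes rose by 1.56-fold to 3.98-fold, with a median log2 fold change of 1.10, against a median of 0.00 over all tested genes. In all 47 the GP day 1 array exceeded the day 0 array of the same prep in each of the 3 preps, by at least 0.41 on the log2 scale, and in 46 of them the groups did not overlap. Over all tested genes, 17.4% were higher in all 3 preps and 5.88% were higher without overlap, but the 47 were called on the same arrays, so their counts only describe them. At an unadjusted p under 0.05, 568 probe sets differed (7.62%), where 373 would be expected with no difference at all, 349 of them higher (4.68%) and 219 lower (2.94%).

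**Figure D1:**
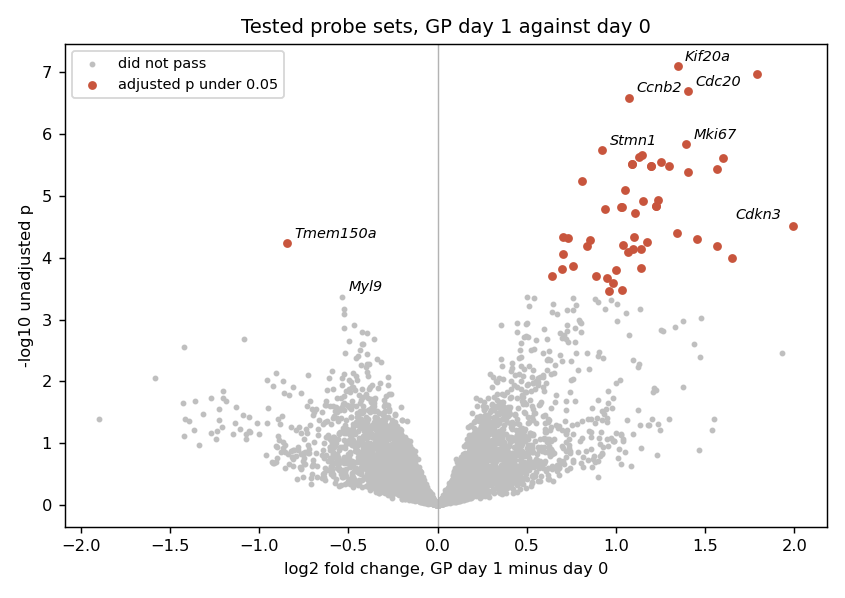
Tested probe sets by log2 fold change (x axis, GP day 1 minus day 0) and −log10 of the unadjusted p (y axis). Points in red passed an adjusted p of 0.05: 53 lie to the right and 1, Tmem150a, to the left. Named points are the probe sets used for the genes given.

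The count of calls rested on the pairing by prep. Without the prep number in the fit, 18 probe sets passed, all higher (0.242%), and they named 17 of the 47 genes (0.301% of the genes tested). With only the 6 arrays, 76 probe sets passed with the prep number and 0 without it, where 284 had an unadjusted p under 0.05 in limma. Leaving out prep 1 from every group left 0 calls, where 414 had an unadjusted p under 0.05, leaving out prep 2 left 4 and leaving out prep 3 left 30. Without the GP day 1 array of prep 1 or prep 2 there were 27 and 33, and without the day 0 array of prep 1 or prep 3 there were 30 and 28. Under every one of the 24 other settings tried, the 48 called genes kept their direction wherever they were tested. All 54 called probe sets had the same sign in all 3 preps to begin with. The kept direction was thus largely set by the choice of genes and only describes them.

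The plot of 8 genes by prep shows what the pairing does. Cdc20, Ccnb2, Cdk1, Kif20a, Mki67 and Top2a were all higher at GP day 1 in each prep, while the preps themselves differed in level. The rise was not the same size in each prep: over the 47 genes the median log2 difference was 1.33 in prep 1, 0.90 in prep 2 and 1.06 in prep 3. Prep 1 had the largest difference in 34 genes and prep 2 the smallest in 32.

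**Figure D2:**
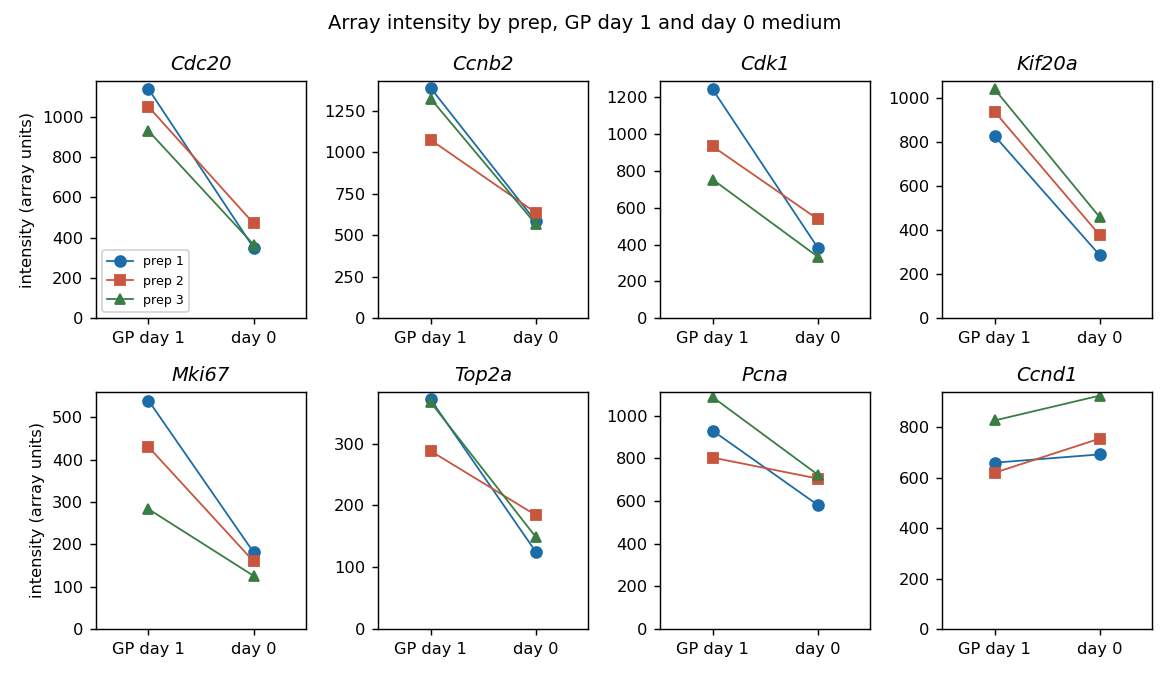
Intensity (y axes, array units, from 0) of 8 genes at GP day 1 and day 0, with a line for each prep. The 6 genes from Cdc20 to Top2a rose, Pcna did not pass the threshold, and Ccnd1 was a little lower at GP day 1 in each prep without passing it.

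The genes that rose were sorted by role after the calls were known, and 15 of the 47 were named by the rule given with the processing, while the other 32 are named here after their values were seen. The first role is the control of cyclin-dependent kinases, with 7 genes that rose by 0.70 to 1.99 on the log2 scale. Cdkn3, a phosphatase that removes the activating phosphate from such kinases, had 98.8, 160.5 and 169 units at GP day 1, against 26.4, 43.0 and 37.6 at day 0. Every GP day 1 array was far brighter than any day 0 array, and the log2 fold change of 1.99 ± 0.32 (adjusted p = 0.00806) was the largest of the called genes. Cyclin B2 (Ccnb2), which drives entry into mitosis with Cdk1, had 1388, 1075 and 1323.5 units at GP day 1, against 584, 636 and 568 at day 0, a log2 fold change of 1.08 ± 0.11 (adjusted p = 0.000479). Cdk1 itself averaged 977 ± 248 units at GP day 1 and 418 ± 107 at day 0, with a log2 fold change of 1.22 ± 0.18. In prep 1 its difference was 1.70, and in prep 2 it was 0.79. The remaining genes of this role were cyclin A2 (Ccna2, 0.70 ± 0.13), the kinase subunit Cks2 (1.05 ± 0.15), the mitotic entry factor Cdca3 (1.20 ± 0.16) and the inhibitor of the G1 kinases Cdkn2d (1.03 ± 0.16). Cdkn2d restrains the G1 kinases, and does not serve mitosis as the others do.

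A second role is the spindle checkpoint, the mitotic kinases and the start of anaphase, with 7 genes that rose by 0.84 to 1.57. Cdc20, which activates the ligase that starts anaphase, had 1137, 1048.5 and 929 units at GP day 1, against 349, 470.3 and 365 at day 0. The lowest GP day 1 array was thus well over the highest day 0 array, and the log2 fold change was 1.40 ± 0.14 (adjusted p = 0.000479). Survivin (Birc5), a subunit of the chromosomal passenger complex, averaged 392 ± 80.2 units at GP day 1 and 131 ± 18.2 at day 0 (1.57 ± 0.21). Its partner kinase Aurkb rose by 0.84 ± 0.15, and Aurka, the kinase of the spindle poles, by 1.24 ± 0.18. The checkpoint kinase Bub1 had 167, 86.9 and 153 units at GP day 1, against 27.1, 49.8 and 62.9 at day 0, so that its rise (1.57 ± 0.27, adjusted p = 0.0123) was far larger in prep 1 than in the others. The checkpoint protein Mad2l1 rose by 1.13 ± 0.14 and the centrosome kinase Nek2 by 1.03 ± 0.16.

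The spindle and cytokinesis made up the most numerous role, with 12 genes that rose by 0.89 to 1.45. Kif20a, a kinesin of the spindle midzone, had 827, 937 and 1039.5 units at GP day 1, against 285, 376 and 458 at day 0. The groups lay far apart (1.35 ± 0.13, adjusted p = 0.000389), and another called probe set for Kif20a gave 1.60 ± 0.20. Without the prep number in the fit its adjusted p was 0.0667. Prc1, which bundles the midzone microtubules, averaged 506 ± 60.3 units at GP day 1 and 206 ± 25.8 at day 0. Ect2, which cells need for cytokinesis, rose by 1.40 ± 0.19, and anillin (Anln), a scaffold of the cleavage furrow, by 1.14 ± 0.14. The spindle pole protein Aspm rose by 1.45 ± 0.25. The kinesins Kif23, Kif11, Kif2c and Kif4 rose by 1.15, 1.11, 1.10 and 1.07 on the log2 scale, the microtubule binding proteins Nusap1 and Ckap2 by 1.14 and 0.89, and the microtubule destabiliser stathmin (Stmn1) by 0.92 ± 0.12. The GP day 1 arrays of Stmn1 were nearly equal, at 1711.5, 1724 and 1702 units at GP day 1, against 802, 987 and 928 at day 0.

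The 10 genes of chromosomes and chromatin rose by 0.70 to 1.39. Mki67, the antigen used to count cycling cells, had 539.9, 430.3 and 283 units at GP day 1, against 181, 159.5 and 125 at day 0. Its log2 fold change was 1.39 ± 0.17 (adjusted p = 0.00164), while a second, dim probe set had 26.4 units at GP day 1 and 23.0 at day 0 (0.22 ± 0.39, not called). The centromere histone Cenpa, which is loaded after mitosis, gave nearly the same difference in each prep, 1.09, 1.07 and 1.11, with 213 ± 7.23 units at GP day 1 and 100.3 ± 1.86 at day 0. Top2a, which untangles sister chromatids, rose by 1.17 ± 0.20. The condensin subunits Smc2 and Smc4 rose by 0.98 ± 0.20 and 0.81 ± 0.11, and Smc4 was the gene whose groups overlapped, because prep 3 was high in both (845 units at GP day 1 and 478 at day 0). The histone variants H2az1, H2az2 and H2ax rose by 0.94, 0.70 and 0.73, the H2A.Z chaperone Anp32e by 0.85 and the chromatin protein Hmgb2 by 1.14.

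Among the other risen genes were Kpna2, an importin that carries proteins into the nucleus (1.25 ± 0.16), and Rangap1, which acts on the same transport cycle (1.00 ± 0.19). Pclaf, which binds the replication clamp Pcna, rose by 1.23 ± 0.19, and Ube2t, a ubiquitin-conjugating enzyme of crosslink repair, by 1.03 ± 0.22. The call of Ube2t was fragile: it passed in 3 of the 23 other settings in which it was tested, with values from 0.23 to 1.12. Cip2a, an inhibitor of protein phosphatase 2A, rose by 1.10 ± 0.19. The remaining genes were Pimreg (1.19), Selenoh (0.70), Trim59 (0.64), 2700099C18Rik (0.96), the opposite-strand transcript Brip1os (0.95) and D17H6S56E-5. The last had 188, 156.5 and 144 units at GP day 1, against 49.4, 46.7 and 44.3 at day 0, a log2 fold change of 1.79 ± 0.17, and the adjusted p equalled that of Kif20a (0.000389). The probe sets of Kif20a, Cdca3, Hmgb2, Nusap1 and Brip1os carry the manufacturer's suffixes for shared or relaxed probe design, so signal from similar transcripts may be included. Of the 54 called probe sets, 3 had no single symbol, and 3 were further probe sets of Kif20a, Plk1 and Cdca5.

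The gene that fell was Tmem150a, which encodes a membrane protein that helps to place a phosphatidylinositol kinase at the plasma membrane. It had 132, 113 and 114 units at GP day 1, against 221, 229.7 and 191 at day 0, and each GP day 1 array was lower than every day 0 array. The log2 fold change was -0.84 ± 0.15 (adjusted p = 0.0120), with an adjusted p of 0.209 without the prep number in the fit.

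The promoters of the risen genes were compared, since genes of G2 and mitosis are known to share a pair of elements near their starts. These are the cell cycle genes homology region (CHR) and CCAAT boxes. The CHR binds the DREAM complex, a repressor of these genes, and CCAAT boxes are bound by NF-Y. RefSeq promoters of build GRCm38.p6, from 250 bases before to 50 after the start, were at hand for 38 of the 47 genes (40 sequences, since some genes have several). The 5 shown are those of the genes with the smallest adjusted p whose promoter held both elements. They are written 5′ to 3′ on the gene's strand, and capitals mark CHR (TTTGAA or TTCGAA) and CCAAT, each on either strand, so that TTCAAA and ATTGG are the reverse forms.
Ccnb2 chr9:70421505-70421804 (minus strand): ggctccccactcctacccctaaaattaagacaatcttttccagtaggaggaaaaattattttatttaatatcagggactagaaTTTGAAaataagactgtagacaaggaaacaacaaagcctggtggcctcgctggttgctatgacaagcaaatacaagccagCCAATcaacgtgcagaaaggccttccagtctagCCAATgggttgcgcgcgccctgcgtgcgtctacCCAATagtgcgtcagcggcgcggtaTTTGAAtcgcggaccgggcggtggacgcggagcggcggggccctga
Cdc20 chr4:118437294-118437593 (minus strand): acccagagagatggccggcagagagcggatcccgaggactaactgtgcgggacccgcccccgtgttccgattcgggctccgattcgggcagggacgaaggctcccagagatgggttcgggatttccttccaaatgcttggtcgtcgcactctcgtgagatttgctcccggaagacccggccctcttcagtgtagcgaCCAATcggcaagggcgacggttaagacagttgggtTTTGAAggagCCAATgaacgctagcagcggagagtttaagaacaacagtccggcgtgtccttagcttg
Cdca3 chr6:124829926-124830225 (plus strand): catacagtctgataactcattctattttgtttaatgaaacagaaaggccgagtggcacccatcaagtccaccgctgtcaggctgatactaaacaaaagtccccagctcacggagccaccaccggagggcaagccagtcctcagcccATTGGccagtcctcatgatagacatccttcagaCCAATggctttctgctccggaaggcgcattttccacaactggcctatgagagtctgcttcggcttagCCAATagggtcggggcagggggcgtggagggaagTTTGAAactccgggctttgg
Cenpa chr5:30666636-30666935 (plus strand): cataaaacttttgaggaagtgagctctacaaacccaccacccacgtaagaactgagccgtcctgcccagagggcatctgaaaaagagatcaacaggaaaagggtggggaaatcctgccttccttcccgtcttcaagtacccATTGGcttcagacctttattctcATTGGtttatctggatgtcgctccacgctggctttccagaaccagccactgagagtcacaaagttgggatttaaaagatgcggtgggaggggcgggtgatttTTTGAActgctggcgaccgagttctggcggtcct
Kpna2 chr11:106999476-106999775 (minus strand): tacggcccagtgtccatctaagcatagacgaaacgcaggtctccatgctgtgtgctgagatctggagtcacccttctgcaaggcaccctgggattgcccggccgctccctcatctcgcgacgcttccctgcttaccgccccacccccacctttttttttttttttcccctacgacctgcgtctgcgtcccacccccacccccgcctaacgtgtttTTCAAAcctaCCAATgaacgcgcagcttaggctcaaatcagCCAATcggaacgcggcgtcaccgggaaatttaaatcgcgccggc
In the Cdc20 promoter the CHR begins 18 bases before the start, between CCAAT boxes at -53 and -8. In Ccnb2 a CHR begins at base 5 of the transcript, after CCAAT boxes at -87, -54 and -21, and in Cenpa it begins at base 17, after boxes at -109 and -86.

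A CHR was found in 29 of the 40 promoters of risen genes (72.5%), against 13.8% of the 5911 promoters of tested genes and 19.2% of all 32851 in the table. CCAAT was found in 33 of the 40 (82.5%), against 37.3% of tested and 37.4% of all promoters. Both were present in 26 of the 40 (65.0%), against 5.87% of tested and 7.52% of all promoters. A CHR starting within 50 bases of the transcript start was present in 57.5% of the risen genes' promoters, against 3.54% of those tested. The 2 elements overlapped in 0 of the 40 promoters and in 7 of those tested. An E2F element of G1/S genes, searched as TTTGGCGC, TTTCGCGC or TTTCCCGC on either strand, was found in 3 of the 40 (7.5%), against 3.67% of tested and 1.84% of all promoters. The motifs were chosen after the risen genes were known, a match is a run of letters and not a shown binding site, and these shares are a description with no test.

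**Figure D3:**
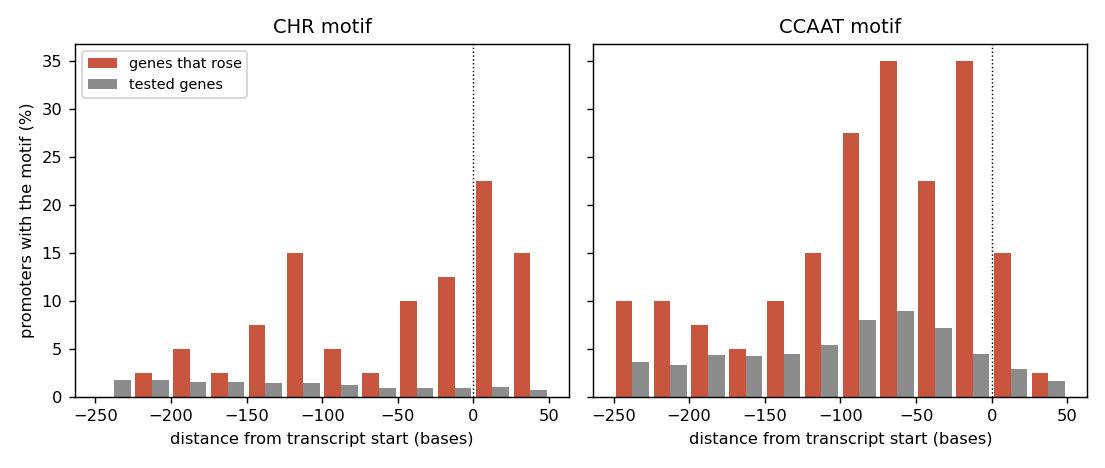
Share of promoters (y axis, percent) with a motif starting in each bin of 25 bases, by distance from the transcript start (x axis, bases, dotted line at the start), for the 40 promoters of risen genes and the 5911 of tested genes. CHR matches of the risen genes are most frequent just after the start, with another frequent bin farther upstream, and CCAAT matches lie mostly before the start.

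Many of the same genes are in the lists drawn up by function, which also show the members that did not pass. The mitosis and spindle list had 38 tested members, of which 24 rose and 0 fell, with a median log2 fold change of 1.06. Over all tested genes 0.833% rose and 0.0177% fell. Without the prep number in the fit 9 of them passed, without the GP day 1 array of prep 1 15 did, and without all arrays of prep 1, 2 or 3 the counts were 0, 3 and 13. All but 2 of the members were higher at GP day 1 in each of the 3 preps, 36 of 38 (94.7%), against 17.4% of all tested genes, and in 34 the groups did not overlap, against 5.88% of all tested genes. Members that did not pass included the polo kinase Plk1, with 429 ± 31.4 units at GP day 1 and 255 ± 32.6 at day 0 (0.76 ± 0.16, adjusted p = 0.0578), although another probe set of Plk1 did (1.34, adjusted p = 0.0101). Others short of the threshold were the kinases Ttk (1.01 ± 0.24) and Plk4 (0.88 ± 0.19), the transcription factor Foxm1 (0.42), which drives many of these genes, and the ubiquitin-conjugating enzyme Ube2c (0.45). Securin (Pttg1) was the member with a negative value, -0.19 ± 0.15.

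The list of DNA replication genes had smaller differences. Of its 36 tested members, 1 rose and 0 fell, and that member, Top2a, is also in the mitosis list. The median log2 fold change was 0.41, and 35 of the 36 values were above 0. At GP day 1, 22 members were higher in all 3 preps (61.1%), against 17.4% of all tested genes. An unadjusted p under 0.05 was found for 18 members, against 7.62% of tested probe sets. By prep the list's median was 0.59, 0.11 and 0.62, so that prep 2 differed least. Pcna, the replication clamp, had 929, 803 and 1086 units at GP day 1, against 581, 705 and 723 at day 0. All its GP day 1 arrays were brighter than all its day 0 arrays, as in 5.88% of all tested genes. The Pcna difference of 0.48 ± 0.13 did not pass (adjusted p = 0.138). Thymidine kinase (Tk1) averaged 691 ± 90.7 units at GP day 1 and 395 ± 110 at day 0 (0.84 ± 0.24, adjusted p = 0.204), and the ribonucleotide reductase subunit Rrm2 had a log2 fold change of 0.73 ± 0.17 (adjusted p = 0.0740). The helicase subunits Mcm2, Mcm3, Mcm4, Mcm5 and Mcm7 had values of 0.41, 0.37, 0.32, 0.49 and 0.43, none of which passed.

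Genes of the G1 phase and of growth control, which act at the decision to divide, had a median of 0.08 over 16 tested members, and only Cdkn2d passed. Cyclin D1 (Ccnd1), the G1 cyclin that mitogens induce, had 659.5, 619.8 and 827 units at GP day 1, against 692, 755 and 926 at day 0. Its log2 fold change was -0.17 ± 0.15, with a 95% interval of -0.49 to 0.15, and the groups overlapped. Its partner kinase Cdk4 had 0.09 ± 0.09 (95% interval -0.09 to 0.28), and Cdkn1a, the inhibitor p21, had 0.00 ± 0.15 (95% interval -0.33 to 0.34). Ccnd1, Cdk4 and Cdkn1a were not named by the rule given with the processing. Besides Cdkn2d, Cdkn2c (0.25 ± 0.11) and Ccne1 (0.26 ± 0.14) were higher in all 3 preps, as 17.4% of all tested genes were. Besides Ccnd1, Myc (-0.30 ± 0.15) and Ccnd2 (-0.16 ± 0.24) were lower in all 3, as 16.8% were.

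**Figure D4:**
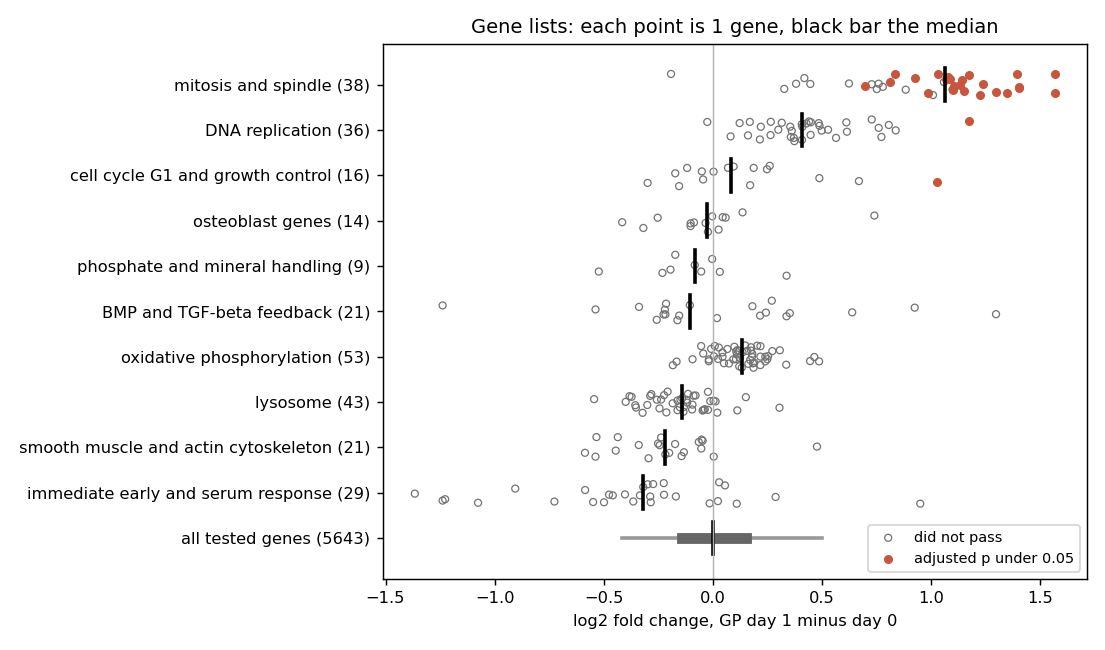
Log2 fold changes (x axis, GP day 1 minus day 0) of the tested members of 10 gene lists, 1 point per gene, red where the adjusted p was under 0.05, with a black bar at each list's median and the number of tested members in brackets. The grey bars at the bottom span the 25th to 75th (thick) and the 5th to 95th percentiles (thin) of all 5643 tested genes. The mitosis list lies at about 1.06 and the replication list at 0.41.

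Outside the cell cycle no list member passed in either direction. Of the 41 lists, 38 had 0 called members in limma, and in the 29 of these with at least 10 tested members the medians ran from -0.32 in immediate early genes to 0.13 in oxidative phosphorylation. The immediate early and serum response list holds the transcription factors and feedback regulators that respond within minutes to growth factors. Of its 29 members, 18 were lower at GP day 1 in all 3 preps (62.1%), against 16.8% of all tested genes. An unadjusted p under 0.05 was found for 8 members, against 7.62% of tested probe sets. Dusp6, a phosphatase that restrains ERK signalling, had the smallest p of the list, with 281, 247 and 132 units at GP day 1, against 422, 308 and 199 at day 0 (-0.50 ± 0.13, adjusted p = 0.151). The genes named next were chosen after their values were seen. Fos had 32.1, 47.2 and 14.0 units at GP day 1, against 301, 54.1 and 22.3 at day 0, and Egr1 had 120.5, 93.0 and 75.5, against 731, 182 and 81.5. For both, the day 0 array of prep 1 stood far above the rest, and neither passed (adjusted p = 0.691 for Fos and 0.642 for Egr1). The matricellular gene Ccn1 had lower values without overlap, as 3.6% of all tested genes did, with 74.4, 109 and 120.0 units at GP day 1, against 183, 179 and 195 at day 0, and did not pass either (-0.91 ± 0.29, adjusted p = 0.327).

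In the smooth muscle and actin cytoskeleton list, whose genes build stress fibres, 13 of 21 tested members were lower in all 3 preps (61.9%). Over all tested genes 16.8% were. The list's median was -0.22, and 7 members had an unadjusted p under 0.05, against 7.62% of tested probe sets. Myosin light chain Myl9 came closest to the threshold, with 207.5, 323 and 242 units at GP day 1, against 372, 426 and 313 at day 0 (-0.54 ± 0.12, adjusted p = 0.0569). Lysosomal genes had 22 of 43 members lower in all 3 preps (51.2%, against 16.8% of all tested genes) with a median of -0.14. In that list the proton pump subunit Atp6v0d1 had the smallest p (-0.38 ± 0.12, adjusted p = 0.266). Oxidative phosphorylation genes had 24 of 53 members higher in all 3 preps (45.3%, against 17.4% of all tested genes) with a median of 0.13. Their smallest p was that of the cytochrome oxidase subunit Cox7a2 (0.34 ± 0.11, adjusted p = 0.382). In the interferon list the transcription factor Irf1 had 201 ± 19.6 units at GP day 1 and 291 ± 47.8 at day 0 (-0.52 ± 0.12, adjusted p = 0.0817), and among detoxification genes the haem oxygenase Hmox1 had -0.42 ± 0.11 (adjusted p = 0.162). In none of these lists did a member pass the threshold.

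Genes of bone and mineral, the program that GP is meant to serve, showed no called change in either direction. The osteoblast list had 14 tested members, a median of -0.03 and 0 members with an unadjusted p under 0.05. Col1a1 had 7782, 9031 and 10081 units at GP day 1, against 8999, 9989 and 9755 at day 0, a log2 fold change of -0.10 ± 0.13 with a 95% interval of -0.39 to 0.18. Alpl, the enzyme that splits GP, had 18.5, 18.2 and 23.9 units at GP day 1, against 34.1, 23.3 and 10.2 at day 0. It was dim in both groups, and its 95% interval of -1.08 to 1.07 on the log2 scale leaves a wide range of differences possible. Ibsp was under the signal filter and not tested, with 29.4, 36.3 and 21.4 units at GP day 1, against 19.6, 11.7 and 9.5 at day 0. Its groups did not overlap, with GP day 1 higher, as in 5.88% of the tested genes. The log2 difference was 0.58, 1.63 and 1.17 in preps 1 to 3, at signals around the filter. A second probe set of Ibsp, near the floor and not tested either, averaged 5.13 units at GP day 1 and 3.43 at day 0. The 9 tested genes of phosphate and mineral handling had a median of -0.08. The phosphate importer Slc20a1 had 65.6, 42.2 and 90.2 units at GP day 1, against 45.6, 69.4 and 88.2 at day 0 (-0.05 ± 0.28), and the mineral inhibitor Mgp had 0.03 ± 0.14 (95% interval -0.27 to 0.33). The phosphate exporter Xpr1 had 229, 221 and 226 units at GP day 1, against 325, 271 and 386 at day 0. Its groups did not overlap, with GP day 1 lower, as in 3.6% of all tested genes, and it did not pass (-0.52 ± 0.13, adjusted p = 0.117). The BMP and TGF-beta feedback list, which reads BMP signalling, had a median of -0.11. An unadjusted p under 0.05 was found for 7.62% of all tested probe sets and for 2 of the 21 members. These 2 went opposite ways, and neither passed after adjustment. Id4, an inhibitor of helix-loop-helix factors, had 587.4, 724 and 506.6 units at GP day 1, against 1009.7, 815.5 and 800.7 at day 0 (-0.54 ± 0.21, adjusted p = 0.564). The transcriptional repressor Hey1 had 41.5, 50.9 and 24.3 units at GP day 1, against 11.9, 16.9 and 17.2 at day 0 (1.30 ± 0.57, adjusted p = 0.638). Every day 0 value of Hey1 was under 22.3 units, the limit that the signal filter sets on the mean over all 15 arrays. The groups of Id4 and Hey1 did not overlap, as in 3.6% of all tested genes for lower values and 5.88% for higher values. The other members named here, like Hey1, were chosen after their values were seen. Id1, Id2 and Id3, which BMP induces in many cells, had values of 0.35 ± 0.43, 0.92 ± 0.61 and 0.64 ± 0.30, above 0 in all 3 preps with overlapping groups. Ccn2, a target of TGF-beta, had -1.24 ± 0.62, below 0 in all 3 preps, and the inhibitory Smad6 had 0.02 ± 0.29.

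Markers of other cell types showed no called difference. The 7 marker lists had 0 called members and medians from -0.04 to 0.20. Few markers were bright enough to be tested: 2 endothelial, 3 adipocyte, 3 epithelial, 5 macrophage and osteoclast, 6 chondrocyte, 7 neural and glial and 10 skeletal muscle. So few genes cannot show that the mix of cell types was unchanged. Summed intensities overlapped in each list, though by little for adipocyte markers. The adipocyte markers ran from 383.6 to 423.2 units at GP day 1, against 346.6 to 384.5 at day 0, and the macrophage and osteoclast markers from 1064 to 1512, against 1099 to 1451. Of the adipocyte markers, Lep had 154.8, 141.3 and 137.8 units at GP day 1, against 130.2, 103.4 and 73.5 at day 0 (0.54 ± 0.18, adjusted p = 0.386). A second, dim probe set of Lep averaged 11.6 units at GP day 1 and 14.4 at day 0, and was not tested. The other tested adipocyte markers, Lipe and Cebpa, had 0.20 ± 0.51 and 0.01 ± 0.15. RNA was taken from whole cultures. More dividing cells and more of the risen transcripts per dividing cell therefore cannot be told apart in any of the values given here.

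The same 47 genes were then read in the remaining groups, each set against the same 3 day 0 arrays that had helped to choose them, so that the comparisons share their controls and the values are given side by side. At day 1 with AA and BMP-2 beside GP, the median log2 difference from day 0 was 1.21 and 46 of the 47 passed, where 6.66% of all tested genes were called higher and 6.73% lower. The exception was Brip1os, at 0.57 (adjusted p = 0.0706). At day 3 with GP alone the median was -0.13, with a range of -0.62 to 0.68, and 0 of the 47 passed in limma. In that comparison 0 genes were called higher and 1 lower (0.0177%) out of 5643, 737 probe sets had an unadjusted p under 0.05, and 10 of the 47 genes did. All GP day 3 arrays were below all GP day 1 arrays in 45 of the 47, against 6.22% of all tested genes. The 47 were chosen for high GP day 1 values on these same arrays, so this count is a description, and the share of it that comes from the choice was not tested. The GP day 3 array of prep 3 had an actin 3′ to 5′ ratio of 2.11, and the part of this in the GP day 3 values was not tested. At day 3 with AA and BMP-2 the median was 0.68 and 37 of the 47 were called higher, where 6.24% of all tested genes were called higher and 6.61% lower.

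Cdc20 and Mki67 were high at day 1 in both media and lower at day 3. Cdc20 averaged 1038 ± 104 units at GP day 1, 362 ± 76.6 at GP day 3, 1130 ± 53.8 at day 1 with AA and BMP-2, 722 ± 60.9 at day 3 with them, and 395 ± 66.0 at day 0. Mki67 averaged 418 ± 129, 155 ± 23.3, 393 ± 43.4 and 247 ± 31.6 units in the same 4 groups, against 155 ± 28.0 at day 0. For both genes the GP day 3 mean was thus close to that of day 0. D17H6S56E-5 had another order, with 163 ± 22.6 units at GP day 1, 77.0 ± 20.9 at GP day 3, 97.2 ± 7.25 at day 1 and 61.1 ± 4.84 at day 3 with AA and BMP-2, and 46.8 ± 2.55 at day 0. Tmem150a had 119 ± 10.8 units at GP day 1, 236 ± 49.9 at GP day 3, 123 ± 17.4 at day 1 and 159 ± 38.9 at day 3 with AA and BMP-2, and 214 ± 20.4 at day 0.

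**Figure D5:**
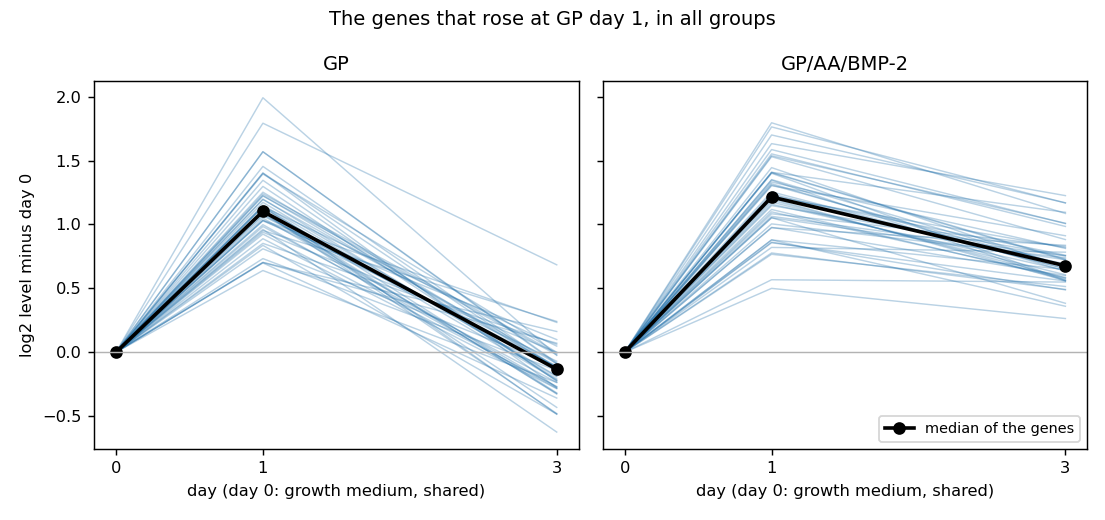
Log2 difference from day 0 (y axes) of the 47 genes that rose at GP day 1, by day (x axes), for GP alone (left) and GP with AA and BMP-2 (right), with 1 thin line per gene and the median in black. The genes were chosen at day 1 of the left panel, and all values share the day 0 arrays. The black line stands at 1.10 and -0.13 on the left and at 1.21 and 0.68 on the right.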

How the data were processed

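RNA of 15 samples was read on 1-colour oligonucleotide arrays, an array per sample. The deposited values are linear intensities, 1 per probe set, whose software is not given in the sources used here. Detection calls were not used. The authors' values had a trimmed mean (2% left out at each end) of 150.1 on every array. Values under 2.8 (10th percentile) were set to 2.8 before log2. Probe sets with a geometric mean over all 15 arrays under 22.3 (40th percentile) and 66 control probe sets were left out. Names came from GEO's platform annotation: 10833 probe sets had 1 symbol, 396 several and 1193 none, and 10817 matched RefSeq of GRCm38.p6 by Entrez identifier. Where a gene had several probe sets, that with the highest mean signal was used. All 15 arrays entered 1 fit with limma 3.58.1 in R 4.3.3 (lmFit, eBayes with a mean trend), with a coefficient per group and the prep number as a block, leaving 8 residual degrees of freedom. The block was used because same-numbered arrays deviated together: their deviations from group means correlated at 0.19 to 0.70 in all 30 pairs. Arrays of different numbers were not compared in this way. Since prep 3 stood apart in every group, these correlations cannot show that prep 1 and prep 2 are each matched across groups. Calls used Benjamini-Hochberg over 7453 probe sets at 0.05. The number of arrays limits the precision, with a median standard error of 0.20 over tested probe sets. The comparison, its members and all 41 lists were chosen with earlier results of these data known. The named genes were up to 12 of the largest called changes each way that agreed in sign in all 3 preps, the called members of each list with the smallest p (up to 4, or 1 where none was called), and a fixed set of bone and mineral genes. Roles and motifs were assigned after the calls were seen. Alternatives were other floors, filters and scalings, fits without the block or with fewer arrays, and leaving out arrays. The fit was tested on simulated data.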

Additional observations from a re-analysis of the deposited data

How the results depend on the processing

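The direction of the called genes did not change between settings, while their number did. All 48 called genes kept their sign under each of the 24 alternatives in which they were tested. Since all 54 called probe sets had agreed in sign in all 3 preps, the kept sign follows largely from the choice and is no test of steadiness. The median of the mitosis and spindle list stayed at 0.93 to 1.08 over the settings that kept all arrays of both groups. The calls of single genes were not equally steady. Ccnb2 and Cdc20 passed in 22 of the 24 alternatives, Trim59 in 9, and Smc2 and Brip1os in 7. Of the 23 in which they were tested, 2700099C18Rik passed in 6 and Ube2t in 3. The number of called probe sets, 54 with 53 higher and 1 lower, was 18, 18 and 0 with no replicate block, where list members past the threshold were 10 in place of 25 and mitosis members 9 in place of 24. With only the 6 arrays of both groups and no replicate block all of these counts were 0, while 284 probe sets had an unadjusted p under 0.05 in limma, and with the replicate block 11 probe sets were lower. Array weights gave 90 called probe sets, 83 higher and 7 lower. The lower count was 4 with a floor at the 50th percentile, and 2 either without a signal filter or with one at the 60th percentile. The cause of these shifts was not tested, beyond the fewer arrays or the missing pairing that each setting has by construction. Leaving out arrays gave 0 to 60 called probe sets, 0 to 59 higher and 0 to 1 lower, with 0 to 28 list members and 0 to 26 mitosis members called and a mitosis median of 0.88 to 1.18. Without prep 1, 2 or 3 in every group the called probe sets were 0, 4 and 30, with 414, 395 and 531 at an unadjusted p under 0.05. They were 27 and 33 without the GP day 1 array of prep 1 or 2, and 30 and 28 without the day 0 array of prep 1 or 3. Values that changed sign belonged to genes that had not passed. Alpl and Rps13 were at 0 with the floor at the 50th percentile. Over the left-out arrays Alpl ran from -0.72 to 0.50, Slc20a1 from -0.34 to 0.28, Mgp from -0.13 to 0.16, Flt1 from -0.027 to 0.47 and Acly from -0.46 to 0.017. Having 3 arrays a group and a median standard error of 0.20 limit what could be called: the smallest called change was 0.64 on the log2 scale.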

Other observations

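Outside division, several lists held a gene with a sizeable difference that did not pass. Hexokinase 1 (Hk1), which starts glycolysis, averaged 3786 ± 568 units at GP day 1 and 2389 ± 770 at day 0 (0.70 ± 0.21, adjusted p = 0.246), while the glycolysis list had a median of -0.11. The Wnt co-receptor Lrp6 had a log2 fold change of -0.40 ± 0.12 (adjusted p = 0.261), and the collagen V chain Col5a1 had -0.52 ± 0.17 (adjusted p = 0.330). The collagen list as a whole had a median of -0.06.

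Cholesterol synthesis genes had a median of -0.23 over 17 tested members, and 0 of them had an unadjusted p under 0.05 in limma. Ribosomal protein genes had a median of 0.00 over 24. Osteoprotegerin (Tnfrsf11b), which restrains osteoclast formation, averaged 144 ± 26.2 units at GP day 1 and 194 ± 57.1 at day 0 (-0.42 ± 0.22, adjusted p = 0.718). Among macrophage markers, Csf1r averaged 60.1 ± 9.47 units at GP day 1 and 25.6 ± 18.1 at day 0 (1.47 ± 0.42, adjusted p = 0.224), on a probe set of relaxed design. Another probe set of Csf1r gave -0.20 ± 0.36, so the probe sets of this gene disagree. The macrophage marker Laptm5 had 1.12 ± 0.34 (adjusted p = 0.275), above 0 in all 3 preps with overlapping groups. The other tested macrophage and osteoclast markers, Cd14, Ctsk and Cx3cr1, had -0.19, -0.13 and -0.04. The values here are SD for intensities (n = 3) and limma's standard errors for log2 fold changes.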
